A study of Homo sapiens with 4 samples.

Results

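Hypoxia-inducible factors (HIFs) are transcription factors made of an oxygen-regulated alpha subunit, HIF-1alpha (HIF1A) or HIF-2alpha (EPAS1), and the constitutive partner ARNT. When oxygen is available, the prolyl hydroxylases EGLN1 and EGLN3 mark the alpha subunit and the VHL ubiquitin ligase has it degraded. When it is stabilised, HIF binds hypoxia response elements and raises genes for glucose use, pH control, mitophagy, collagen maturation and blood vessel growth. The set described here holds 40 genes chosen by symbol: 6 HIF regulators, 13 HIF targets outside glycolysis, and 21 glycolysis enzymes with their regulators. Of these 40, 38 were measured among 18417 genes with a probe set of their own. CA9 was not analysed here, and PGAM1 was left out because its probe sets also carry PGAM4.

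The cells were MDA-MB-231, a human breast cancer line of basal-like character, transfected with a FOXC1 plasmid or with the vector using a lipid reagent and grown with 10% serum. FOXC1 is a forkhead transcription factor. Each group had 2 arrays (4 in all), which the labels call biological replicates. The labels give no oxygen tension, no time after transfection and no statement of whether cells were pools or clones. The p-values therefore cover no spread beyond that of these arrays. Protein was not measured, and HIF alpha subunits are known to be controlled mainly at the protein level. The FOXC1 transcript was not used here as a check of the labels. The number of arrays limits the precision.

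The values are linear PLIER signals (a probe summary for Affymetrix arrays), and changes are FOXC1 minus vector on the scale of log2(signal + 16). A gene passed where limma, a linear model fitted over all probe sets with a gene symbol, gave a Benjamini-Hochberg adjusted p below 0.05. The variance of a gene was drawn toward that of genes of similar signal, with 18.1 prior against 2 residual degrees of freedom. With no such variance trend the limma adjusted p of HIF1A was 0.00221 in place of 3.75e-15. Median signal over all probe sets was between 489 and 512 on the 4 arrays. Of the line's markers, VIM, CD44, CAV1, EGFR and AXL had vector means of 4455 or more, and SPARC was dim. CAV1 and VIM were lower (log2 -0.28 and -0.055), CD44 and EGFR were higher (log2 0.23 and 0.20), and AXL and SPARC did not pass. The luminal receptor genes ESR1 and PGR lay below 277, the 25th percentile of mean signal. Of 8 luminal breast markers 5 were lower in FOXC1 cells. The summed signal of the 8, mostly KRT8, KRT18 and KRT19, was 24317 to 24888 in vector and 20503 to 20839 in FOXC1 arrays. FOXA1 fell most among them (mean 548 in vector and 205 in FOXC1 arrays, log2 -1.35). Beside these and the next marker counts, 15.5% of all genes tested were lower and 15.9% were higher. Of 4 measured endothelial markers PECAM1 was lower, and the summed signal was 2347 to 2643 against 1918 to 1931. Of 5 fibroblast markers DCN was higher (summed signal 1576 to 1580 against 1593 to 1701). Of 4 measured leukocyte markers PTPRC and CD68 were higher (summed signal 9398 to 9487 against 9801 to 10117). DCN (vector and FOXC1 means 89 and 147) and PTPRC (63 and 94) were dim, below 277 in both groups. CD68 (means 8483 and 8922) made up most of the leukocyte sum. No marker was listed at 0, and the part of these markers in the results below was not tested.

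Most measured members were lower in FOXC1-transfected cells, and the size differed by class. Of the 38 measured members, 24 were lower, 1 (ADM) was higher and 13 did not pass. Over all genes tested, 15.5% were lower and 15.9% were higher. All 6 HIF regulators were lower, as were 10 of 12 measured targets outside glycolysis. Of 20 measured glycolysis members 8 were lower. The median log2 change was -0.22 for the regulators, -0.47 for the targets outside glycolysis and -0.05 for the glycolysis members, against 0.03 over all genes tested. Calls with a log2 change of at least 0.3 in size were made for 2 regulators, 9 targets outside glycolysis and 3 glycolysis members on the lower side, where the background was 6.36% of all genes. On the higher side ADM was the 1 such member, with a background of 4.38%. Both FOXC1 arrays lay below both vector arrays in 29 of the 38 members and above them in 4, against 26.4% and 37.1% of all genes. Centring each array on the median of all its probe sets moved the genes called over the whole table from 2852 lower and 2925 higher to 3396 lower and 1739 higher, and the members to 29 lower and 1 higher. Centring on probe sets with a gene symbol gave 2543 lower and 3758 higher over the table, and 24 lower and 2 higher among the members.

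**Figure D1:**
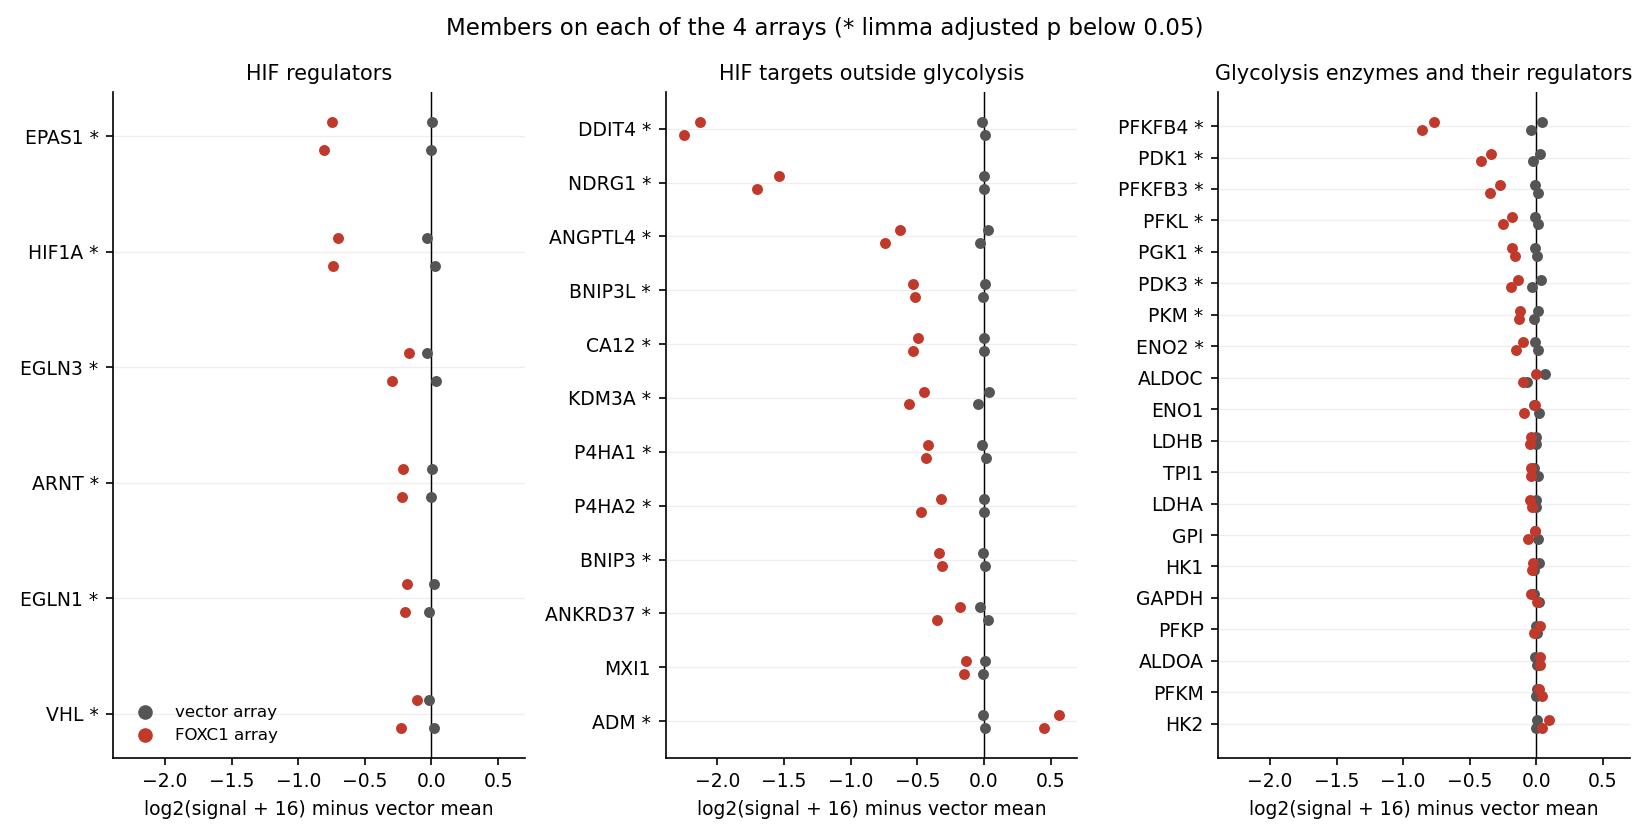
Each point is 1 array, plotted as log2(signal + 16) minus the mean of the vector arrays of that gene, for the measured members in their 3 classes (grey, vector; red, FOXC1; asterisk, limma adjusted p below 0.05). The FOXC1 arrays lie left of the vector arrays for all 6 regulators and for 11 of 12 targets outside glycolysis, ADM lies to the right, and most glycolysis enzymes lie close to 0.

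The core of the hypoxia response element is ACGTG or GCGTG, and 1 window a gene, from 250 bases before to 50 bases after the transcript start that the promoter table uses, was searched for both on both strands. A CACGTG site is palindromic and holds ACGTG on each strand, so it counts as 2 overlapping matches. Promoter sequences are from RefSeq, build GRCh38.p14, and matched 35 of the 38 members (VHL, NDRG1 and BNIP3L are the others). For 26 of these 35 that start lay within 50 bases of the outermost start of the gene in RefSeq. For 9 it lay farther inside the gene, by 4327 bases for KDM3A, 5274 for GPI, 6333 for PFKFB4 and 762 or fewer for P4HA2, GAPDH, PFKM, PFKP, PKM and TPI1. Those shown are the 5 called members with the largest changes that hold a match, and BNIP3 and LDHA, added after their values were seen because each held 6 matches, the most of any member. Capitals mark ACGTG or GCGTG on either strand (on the opposite strand they read CACGT or CACGC), and each window is written 5′ to 3′ on the strand of the gene.
DDIT4, chr10:72273674-72273973, plus strand: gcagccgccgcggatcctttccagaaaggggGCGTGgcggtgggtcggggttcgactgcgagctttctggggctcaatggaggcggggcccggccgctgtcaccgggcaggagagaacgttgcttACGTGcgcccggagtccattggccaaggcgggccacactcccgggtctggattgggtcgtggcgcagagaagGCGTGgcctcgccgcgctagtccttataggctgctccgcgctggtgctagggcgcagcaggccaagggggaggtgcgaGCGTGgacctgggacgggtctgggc
PFKFB4, chr3:48556754-48557053, minus strand: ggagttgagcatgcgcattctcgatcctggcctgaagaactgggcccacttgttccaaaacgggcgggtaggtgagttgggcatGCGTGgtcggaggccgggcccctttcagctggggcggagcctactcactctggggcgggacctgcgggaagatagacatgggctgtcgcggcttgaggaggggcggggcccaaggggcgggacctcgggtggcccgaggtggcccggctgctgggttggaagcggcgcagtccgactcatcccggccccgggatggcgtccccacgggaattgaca
EPAS1, chr2:46297157-46297456, plus strand: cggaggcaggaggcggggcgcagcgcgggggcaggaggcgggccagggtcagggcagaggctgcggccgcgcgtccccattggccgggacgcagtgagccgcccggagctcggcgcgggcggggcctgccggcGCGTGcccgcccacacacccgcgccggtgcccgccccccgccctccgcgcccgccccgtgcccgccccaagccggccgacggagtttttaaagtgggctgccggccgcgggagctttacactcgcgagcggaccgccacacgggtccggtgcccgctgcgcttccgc
HIF1A, chr14:61695263-61695562, plus strand: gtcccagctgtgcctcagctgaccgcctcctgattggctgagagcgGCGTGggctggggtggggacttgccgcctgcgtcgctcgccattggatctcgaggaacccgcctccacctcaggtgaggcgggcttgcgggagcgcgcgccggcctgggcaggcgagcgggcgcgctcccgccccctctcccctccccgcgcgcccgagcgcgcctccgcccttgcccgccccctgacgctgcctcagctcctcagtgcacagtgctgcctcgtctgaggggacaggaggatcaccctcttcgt
ANGPTL4, chr19:8363905-8364204, plus strand: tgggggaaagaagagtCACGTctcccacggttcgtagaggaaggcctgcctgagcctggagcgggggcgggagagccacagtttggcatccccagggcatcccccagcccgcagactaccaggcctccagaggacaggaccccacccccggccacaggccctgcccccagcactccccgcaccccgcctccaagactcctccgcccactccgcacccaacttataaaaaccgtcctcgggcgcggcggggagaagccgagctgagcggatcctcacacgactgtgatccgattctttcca
BNIP3, chr10:131981874-131982173, minus strand: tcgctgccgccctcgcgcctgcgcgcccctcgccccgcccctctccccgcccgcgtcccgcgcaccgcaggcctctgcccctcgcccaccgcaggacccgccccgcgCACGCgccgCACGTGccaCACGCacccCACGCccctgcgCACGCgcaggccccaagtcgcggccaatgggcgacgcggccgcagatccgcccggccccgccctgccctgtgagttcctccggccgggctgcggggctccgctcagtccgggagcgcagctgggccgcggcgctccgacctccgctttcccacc
LDHA, chr11:18394313-18394612, plus strand: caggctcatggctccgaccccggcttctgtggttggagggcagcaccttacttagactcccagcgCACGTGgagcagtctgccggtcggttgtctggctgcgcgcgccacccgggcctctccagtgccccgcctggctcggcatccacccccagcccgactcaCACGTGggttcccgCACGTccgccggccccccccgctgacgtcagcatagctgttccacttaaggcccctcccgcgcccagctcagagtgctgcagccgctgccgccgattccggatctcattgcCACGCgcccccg

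Either core was present in 26 of the 35 members with a window (74.3%), and in 56.7% of the 14237 genes tested that have one. Over all 35116 promoter windows of the table the share was 48.4%. Among the members called lower it was 17 of 21 (81.0%), and among those that did not pass 8 of 13 (61.5%). Each core was also counted whether or not the other was present. ACGTG was in 9 of 21 members called lower and in 6 of the 13 that did not pass. Over the genes tested it was in 24.0%. GCGTG was in 12 of the 21 and 5 of the 13, against 44.7%. Among the 26 members with a window within 50 bases of the outermost start, either core was in 14 of 17 called lower and in 6 of 8 that did not pass. The 2 members with 6 matches were BNIP3, which was lower, and LDHA, which did not pass. DDIT4, with the largest fall, held 4. PDK1, P4HA2, ARNT and EGLN3 were lower and held no match in this window. A match describes letters only, and no match says nothing of sites elsewhere.

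Both HIF alpha subunit transcripts were lower in FOXC1 cells, and by more than ARNT, VHL, EGLN1 and EGLN3. HIF1A read 11762 and 12263 in vector and 7362 and 7202 in FOXC1 arrays. EPAS1 read 2482 and 2469 against 1468 and 1406. In both genes the groups stood far apart relative to the spread of their arrays. HIF1A fell 1.65-fold (log2 -0.72 ± 0.026 SE, limma adjusted p = 3.75e-15) and EPAS1 fell 1.71-fold (log2 -0.78 ± 0.044 SE, adjusted p = 1.17e-11). Ranked from the largest fall among the 18417 genes, EPAS1 stood at 216 and HIF1A at 262.

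The other regulators were lower by small amounts. ARNT, the shared beta subunit, read 3472 and 3464 in vector and 2996 and 2977 in FOXC1 arrays (1.16-fold lower, limma adjusted p = 5.71e-05). EGLN1, the main oxygen-sensing prolyl hydroxylase, read 3162 and 3094 against 2745 and 2727 (1.14-fold lower, adjusted p = 0.000323). Arrays of a group lay close together in both genes and the groups did not overlap. VHL, the substrate-recognition subunit of the ligase, read 2200.3 and 2258 against 2063 and 1902 (1.12-fold lower, adjusted p = 0.00695). EGLN3, a hydroxylase that is itself HIF-inducible, read 662 and 695 against 602 and 549 (1.17-fold lower, adjusted p = 0.0158). The FOXC1 arrays of VHL and EGLN3 differed more from each other than the vector arrays did, with replicate 2 the lower. Both calls were lost without FOXC1 replicate 2 (adjusted p = 0.0617 for VHL and 0.0897 for EGLN3) and without vector replicate 2 (0.089 and 0.175). They were also lost with no variance trend (0.111 and 0.0685) and with all rows tested (0.0548 and 0.0637).

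**Figure D2:**
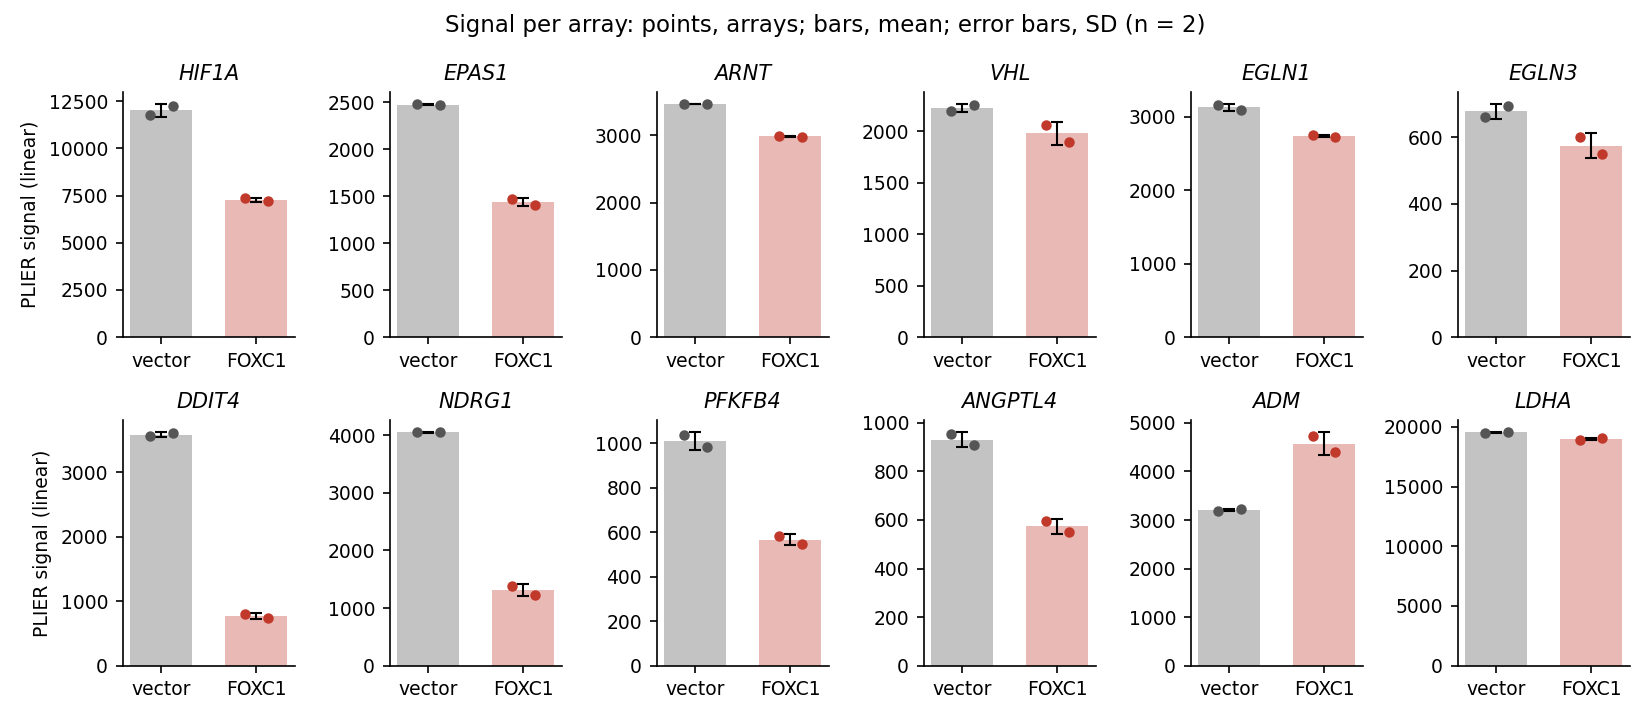
Linear PLIER signal of the 6 regulators and 6 other members; points are arrays, bars are group means and error bars are SD (n = 2 per group), with every axis starting at 0. HIF1A fell from a mean of 12013 to 7282 and DDIT4 from 3585 to 774, ADM rose from 3208 to 4571, and LDHA changed little (19533 and 18996).

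Among the HIF targets outside glycolysis, a stress regulator of growth signalling and a differentiation gene showed the largest falls. DDIT4, also called REDD1, restrains mTORC1 under hypoxia and other stresses. Its signal was 3558 and 3612 in vector and 807 and 742 in FOXC1 arrays, a 4.56-fold fall (log2 -2.19 ± 0.049 SE, limma adjusted p = 1.52e-18). NDRG1, a hypoxia- and differentiation-induced gene, read 4054 and 4049 against 1386 and 1233 (log2 -1.62 ± 0.048 SE, adjusted p = 1.39e-16). These falls ranked at 19 and 44 among the 18417 genes. ANGPTL4, a secreted inhibitor of lipoprotein lipase, read 953 and 909 against 596 and 550.2 (log2 -0.69). No array of either group reached the other group in these 3 genes.

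Both mitophagy receptors were lower. BNIP3 read 10330.2 and 10474 in vector and 8225 and 8342 in FOXC1 arrays (1.26-fold lower, limma adjusted p = 6.75e-10), and its relative BNIP3L, also called NIX, read 8167 and 8111 against 5621 and 5668 (1.44-fold lower, adjusted p = 1.57e-12). The arrays of a group lay within a few percent of each other in both genes.

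Both measured collagen prolyl 4-hydroxylase alpha chains, which hydroxylate procollagen so that its helix is stable, were lower. P4HA1 read 3541 and 3620.3 against 2679 and 2644 (1.34-fold lower), and P4HA2 read 2252 and 2252 against 1803 and 1619 (1.32-fold lower), with limma adjusted p of 6.61e-09 and 1.68e-06. The 2 FOXC1 arrays of P4HA2 were farther apart than those of P4HA1, yet both lay below the vector arrays.

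CA12, a membrane carbonic anhydrase that helps set extracellular pH, read 3329.8 and 3340.0 against 2364 and 2301 (1.43-fold lower). KDM3A, a histone H3 lysine demethylase, read 1256 and 1186 against 889 and 822 (1.42-fold lower). Their limma adjusted p-values were 6.77e-10 and 8.19e-07, and neither gene's groups overlapped. ANKRD37, an ankyrin repeat protein, was 1.20-fold lower, with 674 and 702 in vector and 605 and 534 in FOXC1 arrays (limma adjusted p = 0.00769). This call no longer held with FOXC1 replicate 2 left out (adjusted p = 0.0658), with vector replicate 2 left out (0.089), with no variance trend (0.0708) and with all rows tested (0.0523). MXI1, a MAX-binding antagonist of MYC, did not pass (log2 -0.14, 95% interval -0.26 to -0.022, adjusted p = 0.067), although its readings of 1043 and 1030.2 in vector and 945 and 934 in FOXC1 arrays did not overlap. MXI1 passed, as lower, with the replicate number as a block (adjusted p = 0.0434), with quantile normalization (0.0444), with median centring (0.0308) and in the fit limited to the brighter probe sets, over the 50th percentile (0.0467).

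ADM went against its class. It encodes adrenomedullin, a vasodilator peptide, and it read 3193 and 3224 in vector and 4739.8 and 4403 in FOXC1 arrays, a 1.42-fold rise (log2 0.51 ± 0.037 SE, limma adjusted p = 5.98e-10). Ranked from the largest rise it stood at 222 among the 18417 genes.

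Among the glycolysis members the regulators of flux (PFKFB3, PFKFB4, PDK1 and PDK3) were lower, while most enzymes of the pathway itself did not pass. The PFKFB enzymes make and break fructose 2,6-bisphosphate, the activator of phosphofructokinase-1. PFKFB4 read 1039 and 983 in vector and 586 and 549 in FOXC1 arrays (1.76-fold lower, limma adjusted p = 2.61e-09). PFKFB3 read 3250.2 and 3306 against 2708 and 2572 (1.24-fold lower, adjusted p = 1.59e-06). PDK1 and PDK3 inhibit pyruvate dehydrogenase and so keep pyruvate out of the mitochondrial citrate cycle. PDK1 read 1748 and 1685 against 1349 and 1282 (1.30-fold lower, adjusted p = 3.28e-06). PDK3 read 1175 and 1123 against 1041 and 1003 (1.12-fold lower, adjusted p = 0.0268). In all 4 genes the FOXC1 arrays lay below the vector arrays. PDK3 did not pass when vector replicate 1 (adjusted p = 0.291), vector replicate 2 (0.0806) or FOXC1 replicate 2 was left out (0.0743), with no variance trend (0.0819) and with all rows tested (0.0708).

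Of 14 measured enzymes from hexokinase to pyruvate kinase 4 were lower and 0 passed higher, against 15.5% and 15.9% of all genes tested. The lowest log2 change among the 14 was -0.22. Lower were PFKL, the liver-type phosphofructokinase (1.16-fold, 2350.3 and 2381 against 2082 and 1985), and PGK1, the first ATP-forming enzyme (1.13-fold, 12198 and 12309 against 10815 and 10945). The other two were PKM, pyruvate kinase (1.09-fold, 14984 and 14662 against 13596 and 13527), and the neuron-type enolase ENO2 (1.09-fold, 2708 and 2749.9 against 2549 and 2451). The limma adjusted p was 0.000377 for PFKL, 2.90e-06 for PGK1, 5.39e-05 for PKM and 0.0176 for ENO2. With no variance trend the calls of PGK1 (adjusted p = 0.0521), PKM (0.102) and ENO2 (0.123) were lost. That of ENO2 was also lost without vector replicate 1 (0.0856), without vector replicate 2 (0.173), without FOXC1 replicate 2 (0.0744) and with all rows tested (0.0647).

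The 12 glycolysis members that did not pass had log2 changes between -0.05 and 0.07. They were HK1, HK2, GPI, PFKM, PFKP, ALDOA, ALDOC, TPI1, GAPDH, ENO1, LDHA and LDHB. Over these genes the 95% intervals reached from -0.22 (ALDOC, the dimmest of them) to 0.14 (HK2), and without ALDOC no lower bound was below -0.10. The lactate dehydrogenase chain LDHA, which favours lactate formation, read 19518 and 19547 in vector and 18920.4 and 19071 in FOXC1 arrays (log2 -0.040, 95% interval -0.078 to -0.0022, limma adjusted p = 0.104). GAPDH read 26540.1 and 27221 against 26155 and 26969.6, with overlapping groups. HK2, the inducible hexokinase, had the highest change among them (3533 and 3502 against 3751 and 3628, log2 0.069, adjusted p = 0.147). With each array centred on its probe sets with a gene symbol HK2 passed as higher (adjusted p = 0.0283), while with the other median centring it did not (adjusted p = 0.75). LDHA (adjusted p = 0.0144), LDHB (0.033), TPI1 (0.0323) and ENO1 (0.00462) passed as lower when each array was centred on all probe sets. GPI (adjusted p = 0.0105), LDHB (0.0108) and TPI1 (0.0125) passed as lower with quantile normalization. ENO1 also passed as lower without vector replicate 1 (adjusted p = 0.0178) and without FOXC1 replicate 1 (0.00540). Several of these enzymes are known for processed pseudogenes, whose transcripts the same probes can bind. A less bright probe set of TPI1 gave a log2 change of -0.0043.

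**Figure D3:**
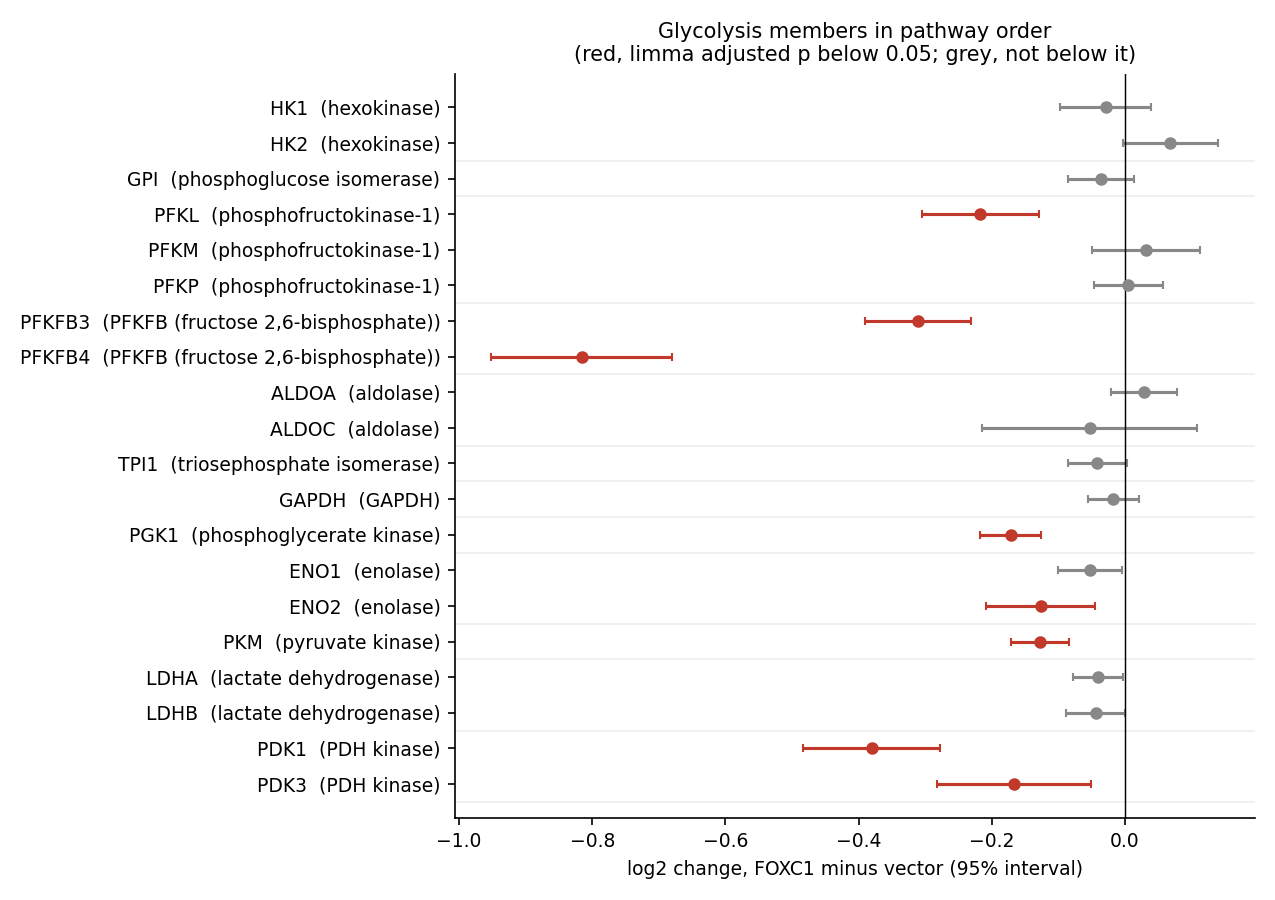
Log2 change (FOXC1 minus vector) of the 20 measured glycolysis members in pathway order, with 95% intervals from the limma fit; red points passed an adjusted p of 0.05 and grey points did not. PFKFB4, PDK1 and PFKFB3 lie farthest left at -0.82, -0.38 and -0.31, and no enzyme from hexokinase to pyruvate kinase lies below -0.22.

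Isozymes of a step did not all have the same call. Among the phosphofructokinase-1 chains PFKL was lower, while PFKM (log2 0.031, 95% interval -0.050 to 0.11) and PFKP (log2 0.0051, 95% interval -0.046 to 0.057) did not pass. The enolases had log2 changes of -0.053 (ENO1, 95% interval -0.10 to -0.0046) and -0.13 (ENO2, 95% interval -0.21 to -0.044), and these intervals overlap. The difference between isozymes was not tested.

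Of the 20 measured glycolysis members 10 lay at the bright end of the arrays, with a mean signal of at least 9000. Of the 412 genes in that range, 13.1% were called lower, 32.0% were called higher, and 1.21% were called lower with a log2 change of at least 0.3 in size. Of 12 members in that range 4 were lower, namely HIF1A, BNIP3, PGK1 and PKM, and 10 of the 12 were glycolysis enzymes. HIF1A and BNIP3 were among those strongly lower genes. Whether the bright signals were compressed was not tested.

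Other genes of the pathway were listed with earlier results of these arrays known, and no difference between these lists was tested. Of 36 measured other HIF targets 20 were lower and 5 were higher, against 15.5% and 15.9% of all genes tested. The median log2 change of these targets was -0.20. The angiogenic factor VEGFA read 6811 and 6548 in vector and 2085 and 2069 in FOXC1 arrays (log2 -1.68). FOS, a subunit of AP-1 that many stimuli besides hypoxia induce, read 5770.5 and 5727 against 2802 and 2561 (log2 -1.10). AK4, a mitochondrial adenylate kinase, read 4134 and 3973 against 2221 and 2105 (log2 -0.90). TMEM45A, a transmembrane protein, went the other way, with 520.1 and 498 in vector and 1092 and 982 in FOXC1 arrays (log2 1.00). In limma none of these 4 genes had an adjusted p above 2.12e-10. The other 4 that were higher were TFRC, RIOK3, LOX and GYS1, by log2 0.23, 0.20, 0.18 and 0.13. The call of LOX was lost with no variance trend (adjusted p = 0.0629). That of GYS1 was lost with median centring (adjusted p = 0.245), no variance trend (0.122) or all rows tested (0.0598), and without vector replicate 2 (0.233). The glucose transporter SLC2A1 was 1.09-fold lower (13635 and 13579.5 against 12632 and 12325), a call lost with no variance trend (adjusted p = 0.109). Its relative SLC2A3 was 1.57-fold lower.

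Of 12 measured other HIF regulators ARNT2 was lower and CITED2 and ELOC were higher, against 15.5% and 15.9% of all genes tested. CITED2, which competes with HIF-1alpha for the coactivators CBP and p300 and is itself HIF-inducible, read 6478 and 6663 in vector and 9326 and 8875 in FOXC1 arrays (log2 0.47, limma adjusted p = 3.14e-11). ELOC, the elongin C chain of the VHL ligase, rose by log2 0.16 (adjusted p = 5.29e-05), a call lost with no variance trend (adjusted p = 0.0709). ARNT2 was lower by log2 -0.17 (adjusted p = 0.0319), and its call was lost with no variance trend (adjusted p = 0.0757) or all rows tested (0.0761), and without FOXC1 replicate 2 (0.0565), vector replicate 1 (0.340) or vector replicate 2 (0.0803). The asparaginyl hydroxylase HIF1AN (log2 0.024) and the coactivators EP300 (log2 -0.024) and CREBBP (log2 -0.033) did not pass. CUL2 (log2 0.063), RBX1 (log2 0.050) and ELOB (log2 -0.069) did not pass either. CUL2 passed as higher with each array centred on its probe sets with a gene symbol (limma adjusted p = 0.0332).

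Of 24 measured other glycolysis and pyruvate enzymes 6 were lower and 2 were higher, against 15.5% and 15.9% of all genes tested. The falls were mostly at the pyruvate dehydrogenase step. Several other listed isozymes (HK3, HKDC1, PGK2, LDHC and FBP2) were dim, below 277, the 25th percentile of mean signal. PDK4 read 525 and 542 in vector and 209 and 243 in FOXC1 arrays (2.27-fold lower, limma adjusted p = 1.07e-09), and PDK2 read 2946 and 2851 against 2099 and 1986 (1.42-fold lower, adjusted p = 4.78e-09). With PDK1 and PDK3 above, all 4 pyruvate dehydrogenase kinase genes were lower, although the PDK3 call was lost under the alternatives given there. The opposing phosphatase PDP1 (1.38-fold) and the complex's own subunits DLAT (1.33-fold) and PDHB (1.10-fold) were lower as well, while PDHA1, PDHX and DLD did not pass. PDHX passed as higher with each array centred on its probe sets with a gene symbol (limma adjusted p = 0.0205). DLD passed as lower with quantile normalization (0.0499). The gluconeogenic enzyme FBP1 was 1.34-fold lower. PFKFB2 (log2 -0.081) and the dim PFKFB1 (log2 -0.011) did not pass. TIGAR, which lowers fructose 2,6-bisphosphate (log2 0.18, limma adjusted p = 0.0291), and the muscle-type PGAM2 (log2 0.18, adjusted p = 0.0479) were higher. That of TIGAR was lost under 6 of the alternatives: with median centring (adjusted p = 0.129), no variance trend (0.134) or all rows tested (0.103), and without vector replicate 1 (0.124), vector replicate 2 (0.136) or FOXC1 replicate 1 (0.209). That of PGAM2 was lost under 8: with an offset of 64 (0.0508), quantile normalization (0.0555), median centring (0.167), no variance trend (0.112) or all rows tested (0.115), and without vector replicate 1 (0.0864), vector replicate 2 (0.371) or FOXC1 replicate 2 (0.200). The call of PDHB was lost without vector replicate 1 (0.118) and with no variance trend (0.104).

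**Figure D4:**
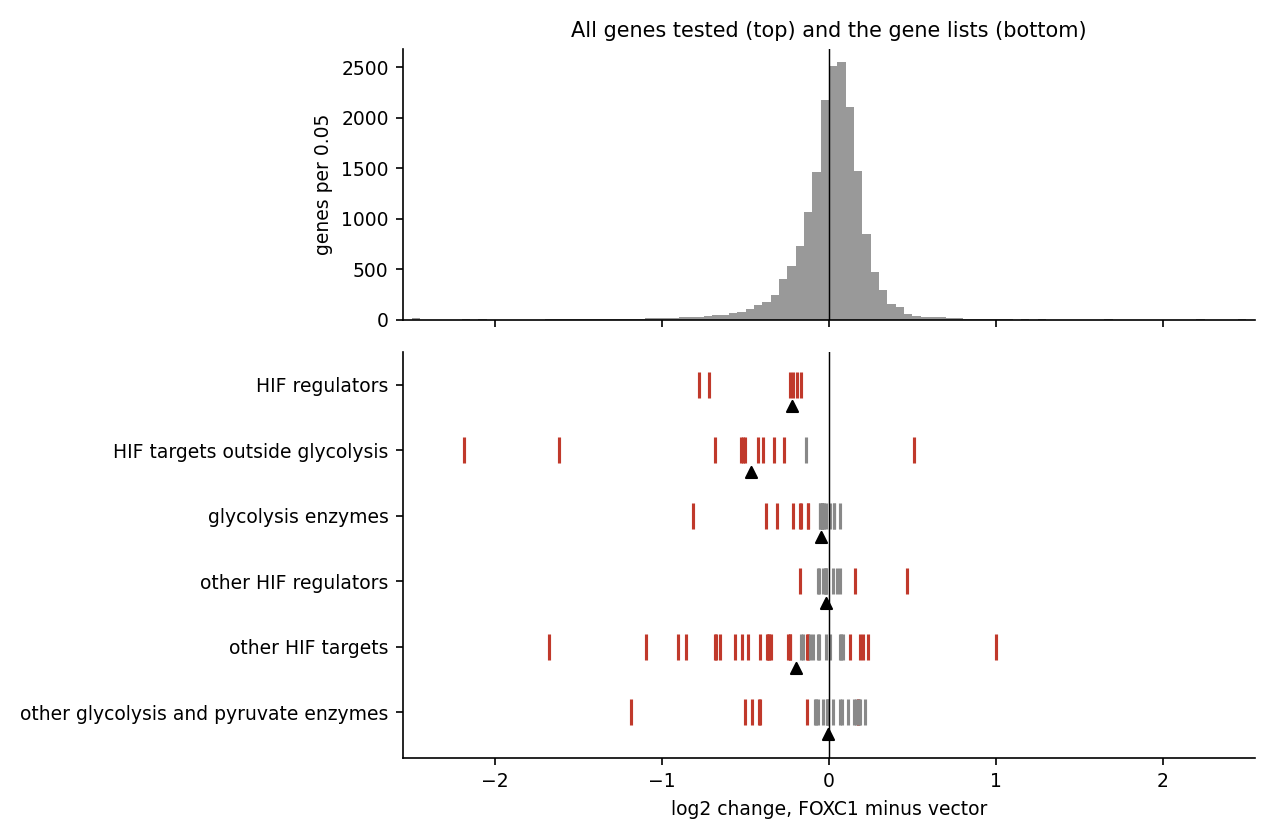
Top, number of genes per 0.05 of log2 change (FOXC1 minus vector) for all 18417 genes, with changes beyond 2.5 in size drawn at the ends; bottom, each tick is a measured gene of the 3 member classes and the 3 lists of other pathway genes (red, adjusted p below 0.05; grey, not below it) and triangles mark list medians. The targets outside glycolysis have a median of -0.47 and the glycolysis members of -0.05, against 0.03 over all genes.

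Since runs of neighbouring genes shift together on these arrays, the 5 measured genes on each side of a member in RefSeq gene order were set beside it. The 24 members called lower lie on 13 chromosomes. The median log2 change of their 10 neighbours ranged from -0.28 to 0.12, and it lay below -0.1 for 2 of them, EGLN3 and NDRG1. Over all genes placed this held for 4.13%. EGLN3, on chromosome 14, stood among neighbours of which 9 of 10 were lower, with a median of -0.28 against its own -0.23. Its shift and that of its neighbours cannot be told apart. NDRG1 had 3 of 10 neighbours lower and a neighbour median of -0.12, far from its own -1.62. HIF1A lies elsewhere on chromosome 14, where the neighbour median was -0.01 against its own -0.72. DDIT4 and P4HA1 are near each other on chromosome 10, so that each counts among the neighbours of the other, and their neighbour medians were -0.03 and 0.0041.

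**Figure D5:**
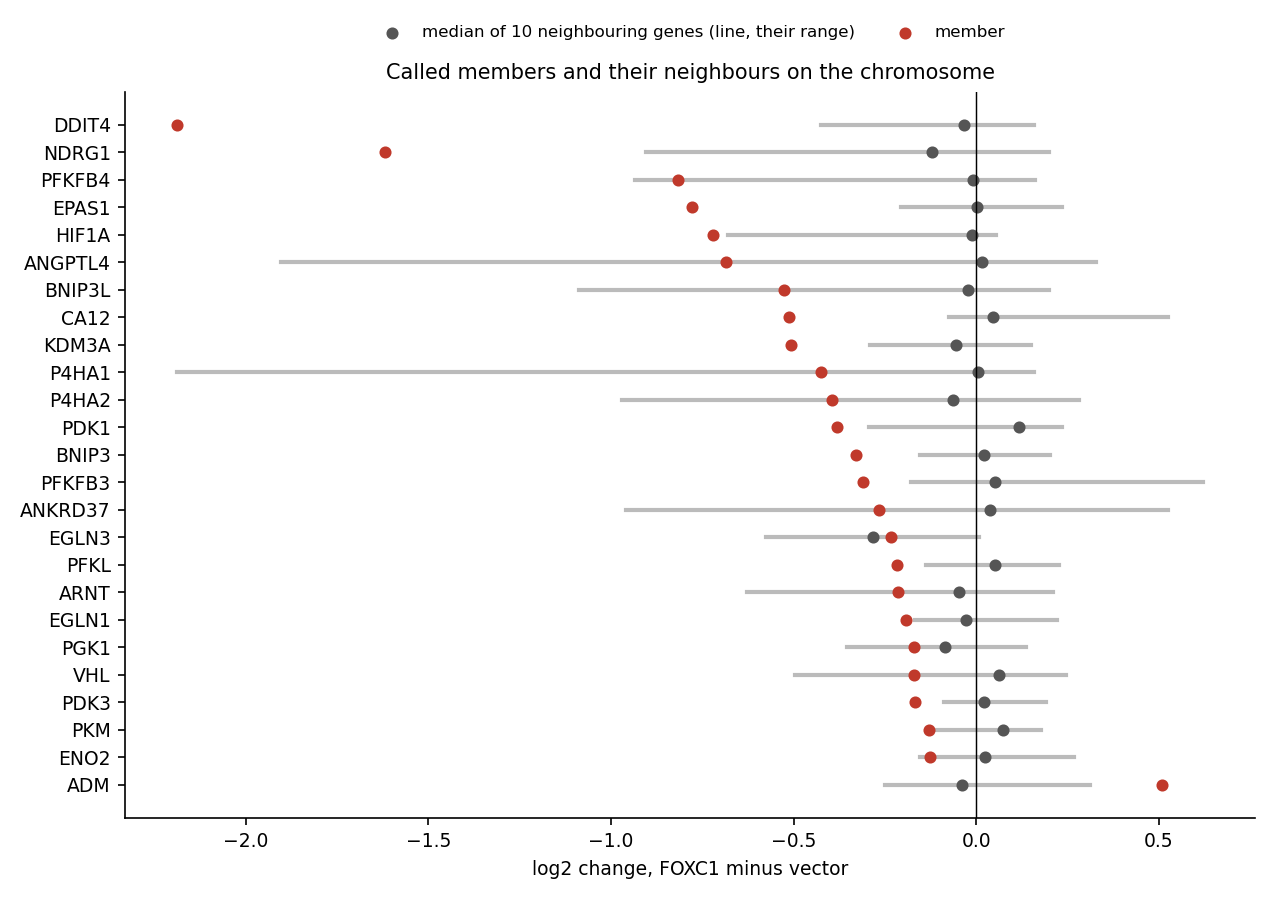
Log2 change (FOXC1 minus vector) of each called member (red) beside the median (grey point) and range (grey line) of its 10 nearest measured genes on the chromosome, 5 on each side. EGLN3 sits at the level of its neighbours (-0.23 and -0.28), while DDIT4 at -2.19 and NDRG1 at -1.62 lie outside the range of theirs.

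The FOXC1 arrays were not alike over the members. FOXC1 replicate 2 read below replicate 1 in 32 of 38 measured members and in 21 of the 24 called lower, against 54.7% of all genes. The calls of VHL, EGLN3, ANKRD37, ENO2 and PDK3 were lost without FOXC1 replicate 2, and also without vector replicate 2. Leaving out any array also lowers the precision of the fit, and the part of a single array in these lost calls was not tested.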

How the data were processed

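RNA from 2 FOXC1-transfected and 2 vector samples was hybridised to Affymetrix human whole-transcript arrays. Per the submitters' processing notes, the authors summarised probes to gene-level intensity with PLIER in Affymetrix Expression Console. No source used here gives the versions, background step or normalization options. The deposited intensity values were used as given. Groups come from the labels. Log2(signal + 16) went into limma 3.58.1 under R 4.3.3 (lmFit, eBayes with a trend, two-sided) over 21214 of 33297 probe sets, those with a gene symbol in the platform annotation, and adjusted by Benjamini-Hochberg at 0.05. The offset shrinks folds of dim genes. The brightest probe set with 1 symbol stands for a gene (18417 genes). All 38 measured members matched RefSeq by gene ID. Members and lists were chosen with earlier results of these data known, so no list was tested as a set. Every member is accounted for: all called members with a log2 change of at least 0.3 in size, all regulators and members against their class are given per array, with up to 4 of each other list besides VEGFA and SLC2A1. Other genes given per array were chosen after their values were seen. The fit was tested on simulated data. Alternatives were an offset of 1 or 64, a signal filter (25th or 50th percentile), quantile and median scaling, other variance moderation, the replicate number as a block, each array left out, averaged probe sets, all rows and an adjusted p of 0.10. Median centring on probe sets with a symbol was added after seeing the data.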

Additional observations from a re-analysis of the deposited data

How the results depend on the processing

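Of the 25 called members, 18 kept their direction and their call under every alternative run, and none of the 25 changed sign. PFKM, PFKP, ALDOA, ALDOC and GAPDH, which did not pass, changed sign under some alternatives and passed under none. The calls lost are given beside each gene. Leaving out 1 array gave between 19 and 25 members lower, and 1 higher each time. With no variance trend 17 members were lower, 4 of them among the glycolysis members, and 4 other pathway genes were higher in place of 9. With each array centred on its probe sets with a gene symbol, 2 members were higher, 1 of them a glycolysis member (HK2); the other counts by class stayed within 1.5 times. The replicate number as a block gave 25 members lower and 1 higher. The labels do not say that a number marks a shared day. Deviations of same-numbered arrays had a correlation of -0.02 over all probe sets, dim ones included. Whether same-numbered arrays share a batch was not tested. ANGPTL4, EGLN3, ANKRD37 and ALDOC gave no value under the filter at the 50th percentile. With 2 arrays a group the precision is low. The member calls lost most often were those of PDK3 and ENO2 (5 of 17 alternatives each), then VHL, EGLN3 and ANKRD37 (4 each).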
